A study of Mus musculus with 12 samples.

Results

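GDC0941 (pictilisib), an inhibitor of class I PI3 kinases, was set against RAD001 (everolimus), an inhibitor of the mTOR complex that contains raptor, in the same mouse leukaemia cells. The comparison takes every gene whose values average 1 FPKM or more in the 6 libraries of the 2 drugs, which is 10135 of the 23234 genes in the deposited table. FPKM is a read count scaled to transcript length and to library size. Fth1, the heavy chain of ferritin, was left out because it is listed at 0 in all 3 RAD001 libraries, whereas it stood at 23090.2, 20293 and 23356 FPKM in the GDC0941 libraries. The cells were primary acute myeloid leukaemia cells with the genotype NRASG12V/Mll-AF9 and an F1 background of FVB/n and C57/BL/6J mice. They grew with the cytokine GM-CSF and received 20 µM GDC0941, 26 µM RAD001 or the vehicle DMSO for 24 h, with 3 libraries in each group. Every group thus carried both oncogenes and the cytokine. One more group, 20 µM PD325901, entered the fit only to estimate the spread. The doses of the 2 drugs differ and were not matched for potency, so a difference between them holds for these doses and this time. How many leukaemias or animals the cells came from is not given in the sources used here, and no label says that the replicates were separate cultures. Every p-value therefore measures only the spread between these samples, which may be technical.

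PI3 kinases turn a membrane lipid into a signal that recruits the kinase AKT. AKT holds FOXO transcription factors out of the nucleus and, through the TSC complex, switches on the mTOR complex with raptor, which drives protein, ribosome and lipid synthesis and restrains lysosome genes. Rapamycin analogues such as RAD001 bind the small protein FKBP12, the product of Fkbp1a, and the pair then blocks that mTOR complex, which also relieves feedback on receptors and PI3 kinase upstream. In myeloid cells the GM-CSF receptor feeds PI3 kinase, RAS and STAT5, and PI3 kinase and mTOR both shape inflammatory and interferon responses.

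Across the genes compared, the 6 libraries had Spearman correlations of 0.965 to 0.996 within a drug and 0.934 to 0.964 between the drugs. Their values added up to between 526634 and 587581 FPKM, and their depth, read from the steps between low values, was 0.853 to 1.22 times that of GDC0941 replicate 1. Read counts are unknown, so no counting error can be given. Replicate 1 stood apart from replicates 2 and 3 within both drugs, and results that turn on a library are given with the value without it. Log2 differences are GDC0941 minus RAD001 after adding 1 FPKM, with the SE of a limma fit, and understate the difference of low genes. A gene was called at an adjusted p under 0.05 (limma, Benjamini-Hochberg over 10135 genes). DMSO levels are given for orientation and were not tested here.

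Of the 10135 genes, 1798 (17.7%) differed between the drugs. Relative to RAD001, 834 genes (8.23%) were higher with GDC0941 and 964 (9.51%) were lower. Counts of list members given below are to be read beside these shares. After quantile normalization the split turned, with 1217 higher and 922 lower. The falls were larger than the rises, with a median log2 difference of -0.66 among the genes called lower and 0.48 among those called higher, while the median over all genes was 0.02. At least a 2-fold difference was reached by 73 of the genes called higher and 257 of those called lower. Among genes that passed, did not overlap between the drugs, reached 5 FPKM in the higher group and held no exact 0 (the naming rule), the 5 largest falls were those of Ppbp, Serpinb2, Cxcl3, Pf4 and Ly6a, and the 5 largest rises those of Car4, Fabp4, Klk1b11, Syngr1 and Mrc1. The number of calls leaned on the RAD001 libraries, with 393 genes higher and 579 lower without RAD001 replicate 2, and 340 higher and 638 lower without RAD001 replicate 3. It leaned also on the DMSO and PD325901 libraries, which enter the estimate of the spread. Fitted to the 6 libraries alone, 242 genes were higher and 451 lower, with 678 of the 1798 main calls among them. No gene that was called in both fits changed its sign under any alternative.

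**Figure D1:**
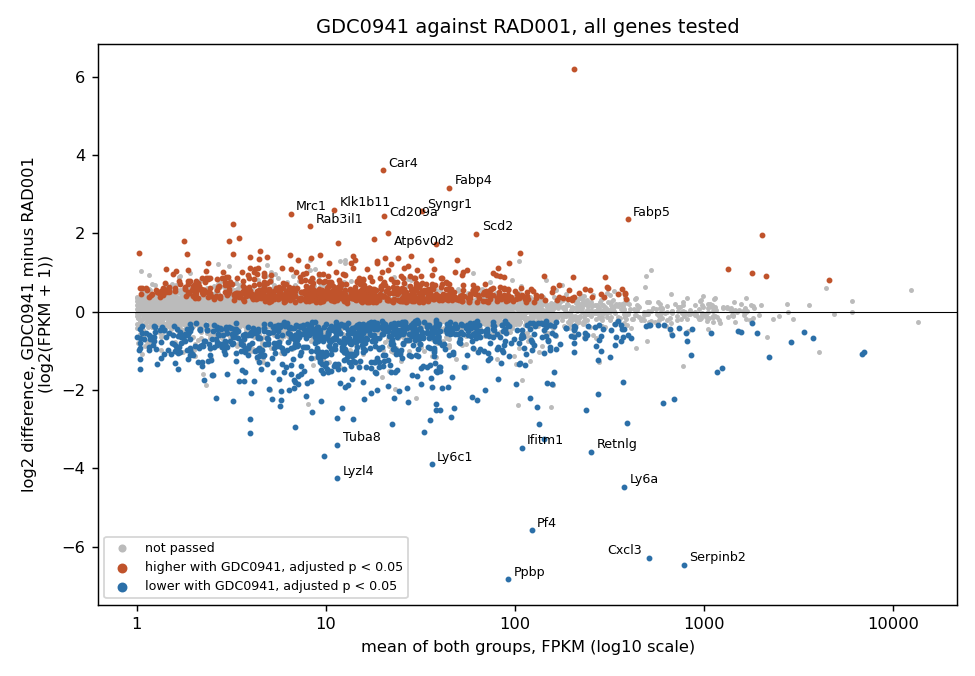
Each point is 1 of the 10135 genes, with the mean of both groups in FPKM on a log10 x axis and the log2 difference of log2(FPKM + 1), GDC0941 minus RAD001, on the y axis. Coloured points were called at an adjusted p under 0.05, 834 of them above 0 and 964 below 0, and the labelled falls, down to -6.83 for Ppbp, reach farther from 0 than the labelled rises, up to 3.61 for Car4, while the unlabelled point at 6.18 is Snora65, which has exact zeros.

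**Figure D2:**
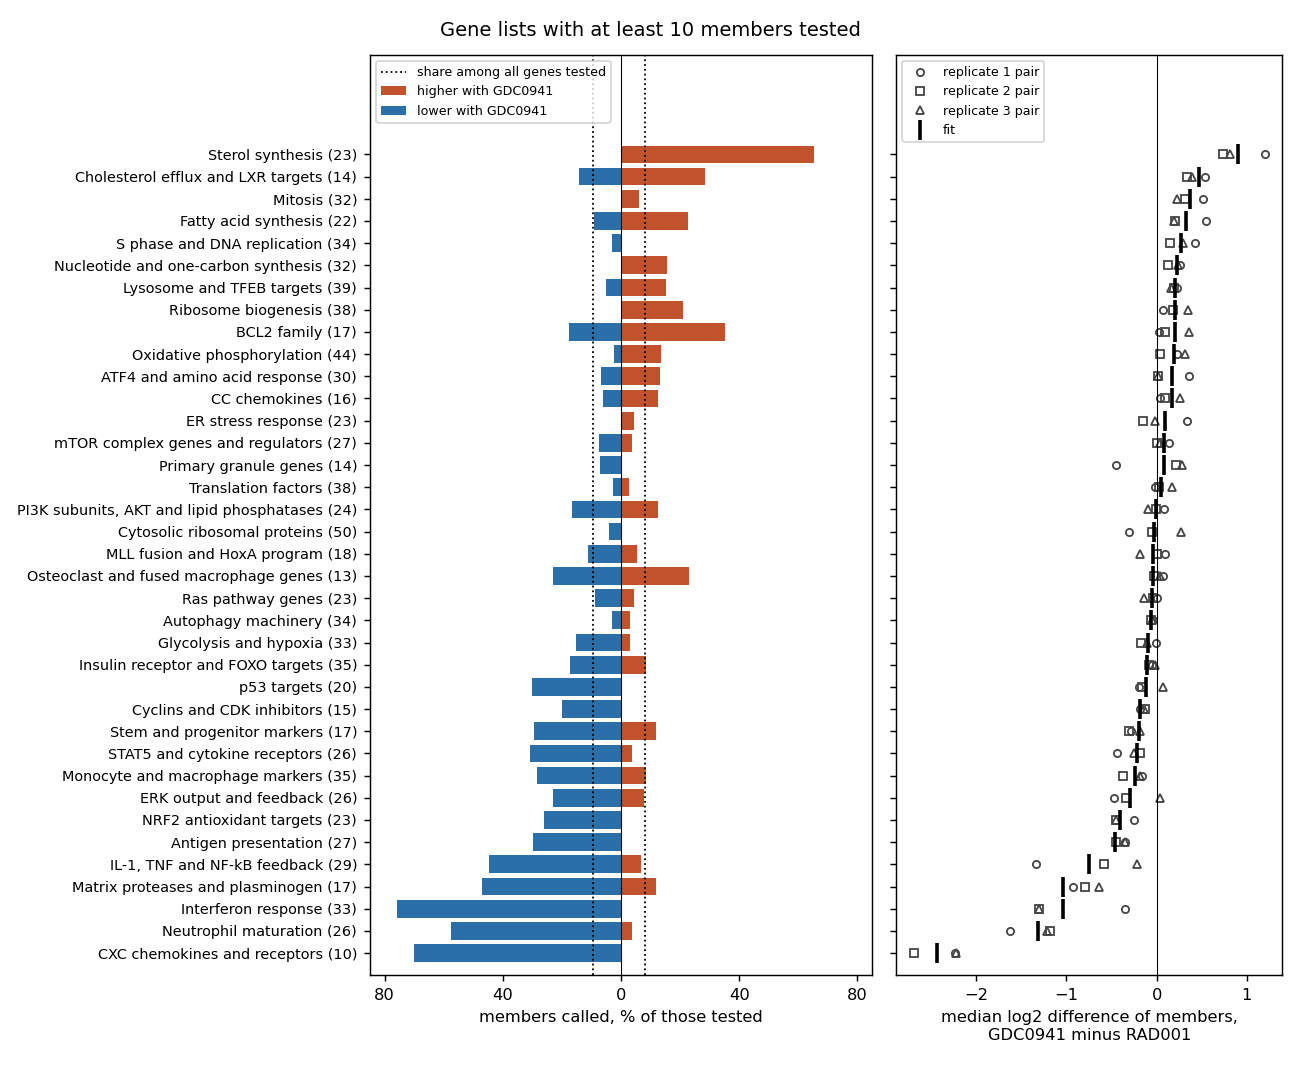
For each gene list with at least 10 members tested (number in brackets), bars to the right give the percent of members higher with GDC0941 and bars to the left the percent lower, with the shares over all genes (8.23% and 9.51%) as dotted lines, and the right panel gives the median log2 difference, GDC0941 minus RAD001, from the fit (bars) and between libraries of the same replicate number (symbols). Calls in the interferon response and CXC chemokine lists lie entirely to the left, those in the neutrophil maturation and matrix protease lists mostly so, and those in the sterol synthesis list entirely to the right.

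The mTOR kinase gene Mtor (6.42, 5.27 and 3.71 FPKM with GDC0941 and 5.78, 5.84 and 5.47 FPKM with RAD001) and the raptor gene Rptor (-0.05 ± 0.20) did not pass. Neither did the catalytic PI3 kinase genes Pik3ca (0.11 ± 0.10), Pik3cb (0.19 ± 0.24), Pik3cd (-0.09 ± 0.11) and Pik3cg (-0.28 ± 0.12), nor the oncogene Nras (0.16 ± 0.07). Fkbp1a, the partner of RAD001, was at 172, 178 and 208 FPKM in the GDC0941 libraries, against 167, 146 and 138 FPKM in the RAD001 libraries (log2 difference 0.30 ± 0.10, adjusted p = 0.0618), and would have passed without RAD001 replicate 1 (0.38, adjusted p = 0.0280). Pik3cg would have passed without GDC0941 replicate 2 (-0.39, adjusted p = 0.0399).

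Of 24 PI3 kinase, AKT and lipid phosphatase genes, 4 were lower and 3 were higher with GDC0941, beside 9.51% lower and 8.23% higher of all genes, and the median log2 difference was -0.00. Pik3ap1 (BCAP), an adaptor that brings PI3 kinase to receptors in immune cells, fell to 57.1, 47.7 and 31.9 FPKM in the GDC0941 libraries, against 97.8, 111 and 98.8 FPKM in the RAD001 libraries (log2 difference -1.19 ± 0.17, adjusted p = 0.000878). Inpp5d (SHIP), a phosphatase that acts on the PI3 kinase product, was lower as well, at 47.7, 37.1 and 31.4 FPKM in the GDC0941 libraries, against 59.8, 64.1 and 65.2 FPKM in the RAD001 libraries (log2 difference -0.71 ± 0.12, adjusted p = 0.00276). No library of one drug overlapped those of the other in either gene. The insulin receptor substrate Irs2 rose by 0.64 ± 0.14 (adjusted p = 0.0111). Fitted to the 6 libraries alone, the Irs2 call ended (adjusted p = 0.0757). The 3 higher members included also Pik3ip1 and Pik3r5, an inhibitor and a regulatory subunit of PI3 kinase, both named after their values were seen. The count of higher members was 1 without GDC0941 replicate 2 or without any 1 of the RAD001 libraries.

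Of 27 mTOR complex genes and regulators, 24 did not pass, and 11.1% were called, beside 17.7% of all genes. Rragc, a Rag GTPase that carries the amino acid signal to the mTOR complex on the lysosome, rose to 108, 107 and 102 FPKM in the GDC0941 libraries, against 71.2, 68.5 and 66.1 FPKM in the RAD001 libraries (log2 difference 0.62 ± 0.08, adjusted p = 0.000696). Sesn2, a leucine sensor that restrains mTOR, fell by 0.59 on the log2 scale (SE 0.09). Rictor, the scaffold of the other mTOR complex, was at 3.18, 3.84 and 2.64 FPKM with GDC0941 and 4.51, 4.41 and 4.62 FPKM with RAD001 (log2 difference -0.40 ± 0.11, adjusted p = 0.0356). The Rictor call ended without any 1 library other than GDC0941 replicate 2 (adjusted p = 0.0603 to 0.108). The higher members of this list numbered 2 with the replicate block, and also without GDC0941 replicate 1 or 2 or RAD001 replicate 1. The lower ones numbered 1 without GDC0941 replicate 3 or any 1 of the RAD001 libraries.

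Of 35 insulin receptor and FOXO target genes, 3 were higher and 6 were lower with GDC0941, and their median log2 difference was -0.11, or -0.02 without RAD001 replicate 1, -0.20 without GDC0941 replicate 1 and -0.19 without RAD001 replicate 3. With the 6 libraries alone 1 was higher and 2 were lower. Txnip, a brake on glucose uptake, was lower (log2 difference -0.89 ± 0.15, adjusted p = 0.00314) and so was Bcl2l11, the death-promoting protein BIM (log2 difference -0.55 ± 0.10, adjusted p = 0.00541, or 0.0583 with the 6 libraries alone). Klf4, a transcription factor of monocytes, was higher (log2 difference 1.09 ± 0.21, adjusted p = 0.0059). The FOXO core motif TGTTTAC, searched on both strands, was found in 4 of the 28 promoters of this list that could be matched (14.3%), against 4.05% of 27025 mouse promoters.

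CXC chemokines held 3 of the 4 largest falls by the naming rule. Of 15 listed members 10 were tested, and 7 were lower with GDC0941 while the other 3 did not pass. Ppbp, the precursor of a platelet chemokine that attracts neutrophils, was at 0.530, 0.595 and 0.719 FPKM in the GDC0941 libraries, against 201, 182 and 167 FPKM in the RAD001 libraries (limma, log2 difference -6.83 ± 0.22, adjusted p = 3.67e-08). The DMSO libraries held 6.95, 3.97 and 2.55 FPKM of Ppbp, so the RAD001 libraries were the high ones. Pf4, another platelet chemokine, was at 4.35, 4.49 and 3.40 FPKM in the GDC0941 libraries, against 278, 232 and 215 FPKM in the RAD001 libraries (log2 difference -5.58 ± 0.37, adjusted p = 8.52e-06). For Pf4 the DMSO libraries lay in between, at 132, 81.0 and 76.6 FPKM.

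The neutrophil attractant Cxcl3 was at 7.31, 13.5 and 16.3 FPKM in the GDC0941 libraries, against 716, 1232 and 1102 FPKM in the RAD001 libraries (log2 difference -6.28 ± 0.47, adjusted p = 1.73e-05), with 19.7, 4.55 and 3.95 FPKM in the DMSO libraries. Its neighbour on chromosome 5, Cxcl2, was at 37.9, 14.5 and 49.3 FPKM in the GDC0941 libraries, against 315, 157 and 234 FPKM in the RAD001 libraries (log2 difference -2.87 ± 0.64, adjusted p = 0.0118). Both genes were far higher in every RAD001 library than in any GDC0941 library, and Cxcl2 varied more among replicates. Cxcl5 was listed at 0 in GDC0941 replicates 1 and 2 and at 0.0348 FPKM in replicate 3, against 8.25, 5.62 and 9.79 FPKM in the RAD001 libraries. Cxcl10, an interferon-induced attractant of T cells, was at 1.88, 1.81 and 1.53 FPKM in the GDC0941 libraries, against 5.41, 16.7 and 10.7 FPKM in the RAD001 libraries (log2 difference -2.01 ± 0.28, adjusted p = 0.000783), with 16.6, 19.7 and 23.2 FPKM in the DMSO libraries. The 3 members that did not pass were Cxcl16 (-0.27) and the receptors Cxcr4 (0.21) and Cx3cr1 (0.06). Ppbp and Cxcl5, at means under 1 FPKM with GDC0941, reached the level needed for a test through the RAD001 libraries. The median log2 difference was -2.44 over the 10 members tested, -0.40 over all members with no filter on low values, and -1.26 with a pseudocount of 5 FPKM.

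Pf4 and Ppbp are also markers of megakaryocytes and platelets. Summed over 11 megakaryocyte markers, the level was 7.40 to 14.8 FPKM in the GDC0941 libraries and 384 to 485 FPKM in the RAD001 libraries, where nearly all of it came from these 2 genes. Of the 11 markers 4 were tested, and besides Pf4 and Ppbp, which were lower, 2 did not pass. In 1 of these all GDC0941 libraries were above all RAD001 libraries. With the replicate block, or with the 6 libraries alone, 1 member was called higher. Among the defining receptors, Itga2b was near 0 with both drugs, at means of 0.209 FPKM with GDC0941 and 0.279 FPKM with RAD001. Gp1ba averaged 0.329 FPKM with GDC0941 and 0.227 FPKM with RAD001, and Gp9 was listed at 0 in every one of the 6 libraries. In these bulk samples fewer cells of a type and less RNA per cell cannot be told apart.

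The promoters of Cxcl3, Cxcl2 and Cxcl10 are those of the CXC list that hold a match to the NF-kB motif, which NF-kB factors bind at inflammatory genes. The forms searched, on both strands, were GGGAATTTC, GGGGATTTC, GGGAAATTC, GGGACTTTC and GGGAACTTC. They were found in 3 of 8 matched promoters of this list (37.5%), against 1.59% of all 27025 promoters. The 250 bases before the start site (RefSeq, build GRCm38.p6) of the paralogues Cxcl3 and Cxcl2 are shown to let the shared site be seen, with the match in capitals. In both, 1 run holds the first form on the printed strand and, overlapping it, the third form on the other strand, beginning 73 bases before the start in Cxcl3 and 97 bases before it in Cxcl2.
Cxcl3, chr5:90785851-90786100, plus strand: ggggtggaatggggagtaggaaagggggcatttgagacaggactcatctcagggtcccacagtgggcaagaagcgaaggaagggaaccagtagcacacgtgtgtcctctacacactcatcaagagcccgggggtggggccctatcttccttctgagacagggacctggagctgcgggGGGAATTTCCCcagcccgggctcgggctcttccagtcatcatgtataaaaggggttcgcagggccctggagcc
Cxcl2, chr5:90903649-90903898, plus strand: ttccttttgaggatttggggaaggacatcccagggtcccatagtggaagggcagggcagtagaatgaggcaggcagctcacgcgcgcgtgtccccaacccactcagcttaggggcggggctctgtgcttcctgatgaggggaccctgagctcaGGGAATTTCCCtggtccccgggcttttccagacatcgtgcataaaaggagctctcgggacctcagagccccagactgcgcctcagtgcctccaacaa

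**Figure D3:**
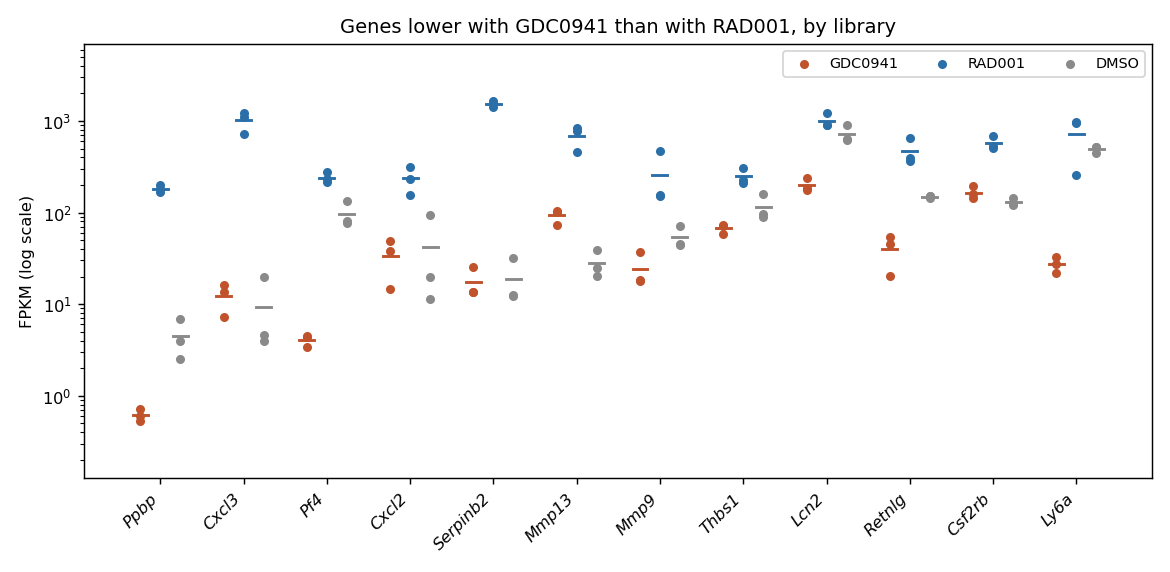
Points give the FPKM in each library on a log axis for genes lower with GDC0941, with GDC0941 left of RAD001, DMSO last and a bar at each mean. For Serpinb2, Cxcl3 and Ppbp the 3 RAD001 libraries lie far above the 3 GDC0941 libraries and above the DMSO libraries.

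Genes of matrix breakdown and of the plasminogen system followed the same direction, with 8 of 17 lower and 2 higher with GDC0941 (median log2 difference -1.04). That median was -0.56 without RAD001 replicate 1, -0.68 without GDC0941 replicate 2 and -0.52 with no filter on low values. Serpinb2, an inhibitor of plasminogen activators made by activated macrophages, was at 25.3, 13.4 and 13.5 FPKM in the GDC0941 libraries, against 1633, 1588 and 1432 FPKM in the RAD001 libraries (log2 difference -6.46 ± 0.32, adjusted p = 9.34e-07). The DMSO libraries, with 31.9, 12.5 and 12.4 FPKM, overlapped those of GDC0941. Mmp13, a collagenase, was at 73.4, 102 and 104 FPKM in the GDC0941 libraries, against 461, 847 and 772 FPKM in the RAD001 libraries (log2 difference -2.85 ± 0.26, adjusted p = 5.32e-05), and the DMSO libraries, at 38.6, 20.3 and 24.5 FPKM, lay below both drugs. Mmp9, the gelatinase stored in neutrophils and needed by osteoclasts, was at 37.0, 18.2 and 17.7 FPKM in the GDC0941 libraries, against 469, 157 and 154 FPKM in the RAD001 libraries (log2 difference -3.24 ± 0.41, adjusted p = 0.000428). Replicate 1 of RAD001 was the highest library for Mmp9, and all GDC0941 libraries were below all RAD001 libraries. Mmp25, the membrane-bound leukolysin of neutrophils, fell by 2.28 on the log2 scale (SE 0.15). Thbs1, the matricellular protein thrombospondin, was at 58.6, 73.3 and 70.5 FPKM in the GDC0941 libraries, against 308, 208 and 229 FPKM in the RAD001 libraries (log2 difference -1.85 ± 0.22, adjusted p = 0.00029). The exceptions, named after their values were seen, were the metalloproteinase Mmp19 and the osteoclast protease Ctsk, both higher. The count of higher members was 1 without GDC0941 replicate 1 or 3 or RAD001 replicate 2 or 3.

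Of 29 genes of IL-1, TNF and NF-kB feedback, 13 were lower and 2 were higher with GDC0941, with a median log2 difference of -0.75. Il1r2, the decoy receptor for IL-1, fell to 14.3, 9.67 and 10.4 FPKM in the GDC0941 libraries, against 76.7, 65.9 and 64.0 FPKM in the RAD001 libraries (log2 difference -2.50 ± 0.29, adjusted p = 0.000225). Ptgs2, the inducible cyclooxygenase, was at 1.73, 0.827 and 0.978 FPKM in the GDC0941 libraries, against 12.5, 7.09 and 8.13 FPKM in the RAD001 libraries (log2 difference -2.22 ± 0.32, adjusted p = 0.000921). The survival protein Birc3 fell by 0.97 on the log2 scale (SE 0.12), and the NF-kB cofactor Bcl3 by 1.07 (SE 0.21). For these 4 genes no library of one drug overlapped the other. This list differed among replicates, with a median over its members of -1.34 between the replicate 1 libraries, -0.59 between the replicate 2 libraries and -0.22 between the replicate 3 libraries. Its count of lower members was 6 without RAD001 replicate 2 and 8 without RAD001 replicate 1, and 20 without replicate 1 of every group. Both calls of higher members ended without GDC0941 replicate 2 or 3 or RAD001 replicate 2 or 3, and 1 of them without RAD001 replicate 1. NF-kB motif matches stood in 5 of the 25 promoters matched (20.0%).

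Most of the interferon-stimulated genes tested were lower with GDC0941. Of 33 members tested, 25 fell, 8 missed the threshold, and the median log2 difference was -1.04. In 22 members all GDC0941 libraries were below all RAD001 libraries, as they were in 14.9% of all 10135 genes. Isg15, a ubiquitin-like protein, was at 22.1, 15.3 and 20.3 FPKM in the GDC0941 libraries, against 44.8, 126 and 127 FPKM in the RAD001 libraries (limma, log2 difference -2.18 ± 0.35, adjusted p = 0.00211). Usp18, the protease that removes it, was at 13.0, 13.5 and 12.8 FPKM in the GDC0941 libraries, against 27.0, 54.4 and 50.9 FPKM in the RAD001 libraries (log2 difference -1.61 ± 0.26, adjusted p = 0.0022). In both genes RAD001 replicate 1 was the lowest RAD001 library and still above every GDC0941 library. Oasl1, a relative of the RNA-sensing synthetases, was at 2.27, 2.57 and 2.99 FPKM in the GDC0941 libraries, against 7.77, 28.5 and 28.6 FPKM in the RAD001 libraries (log2 difference -2.45 ± 0.38, adjusted p = 0.00151). The antiviral gene Rsad2 (viperin), named after its values were seen, was at 2.56, 2.11 and 2.09 FPKM in the GDC0941 libraries, against 4.84, 14.8 and 14.8 FPKM in the RAD001 libraries (log2 difference -1.80 ± 0.35, adjusted p = 0.00608). Its DMSO libraries stood at 23.8, 11.6 and 13.2 FPKM, and those of Isg15 at 187, 109 and 106 FPKM, so for both genes GDC0941 was below DMSO in every library. Ifitm1, a membrane protein that blocks virus entry, was at 18.1, 12.9 and 15.8 FPKM in the GDC0941 libraries, against 334, 146 and 125 FPKM in the RAD001 libraries (log2 difference -3.48 ± 0.31, adjusted p = 4.75e-05), and here RAD001 replicate 1 was the highest library.

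The size of the interferon difference depended on the replicate. The median over the members was -0.35 between the replicate 1 libraries, -1.31 between the replicate 2 libraries and -1.30 between the replicate 3 libraries. Without RAD001 replicate 2 the count of lower members was 11, and it was 11 without RAD001 replicate 3. With the 6 libraries alone it was 10. Without RAD001 replicate 1 it was 32, and without replicate 1 of every group all 33 members were lower.

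Promoters of this list often carry the element that interferon-activated factors bind. TTTCNNTTT, searched on both strands, was found in 20 of 26 matched promoters (76.9%), against 12.1% of the 27025 promoters. Of those 20 genes 14 were called, beside 25 of all 33 members tested, so the called members were not set apart by the element. The 250 bases before the start of Isg15, Oasl1 and Cxcl10 are shown to place the element against the falls given above, with matches in capitals. Isg15 has 3 overlapping matches that form 1 run, which begins 77 bases before the start. Oasl1 has 2 matches, 1 on each strand, which begin 177 and 156 bases before the start, and Cxcl10 has a single match that begins 212 bases before it.
Isg15, chr4:156200819-156201068, minus strand: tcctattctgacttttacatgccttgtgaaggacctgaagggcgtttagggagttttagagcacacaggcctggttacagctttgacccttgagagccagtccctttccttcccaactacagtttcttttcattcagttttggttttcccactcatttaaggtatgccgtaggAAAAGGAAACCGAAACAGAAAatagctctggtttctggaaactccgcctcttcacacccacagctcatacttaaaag
Oasl1, chr5:114922990-114923239, plus strand: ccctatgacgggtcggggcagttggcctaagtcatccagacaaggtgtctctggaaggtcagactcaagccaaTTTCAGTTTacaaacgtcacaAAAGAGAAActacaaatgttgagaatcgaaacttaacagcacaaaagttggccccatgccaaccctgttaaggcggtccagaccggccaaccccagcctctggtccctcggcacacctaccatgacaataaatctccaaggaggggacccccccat
Cxcl10, chr5:92348890-92349139, minus strand: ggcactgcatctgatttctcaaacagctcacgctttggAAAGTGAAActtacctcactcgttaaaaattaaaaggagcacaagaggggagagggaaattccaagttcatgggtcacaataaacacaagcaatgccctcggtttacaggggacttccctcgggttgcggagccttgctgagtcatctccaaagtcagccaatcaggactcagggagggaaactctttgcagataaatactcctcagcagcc

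**Figure D4:**
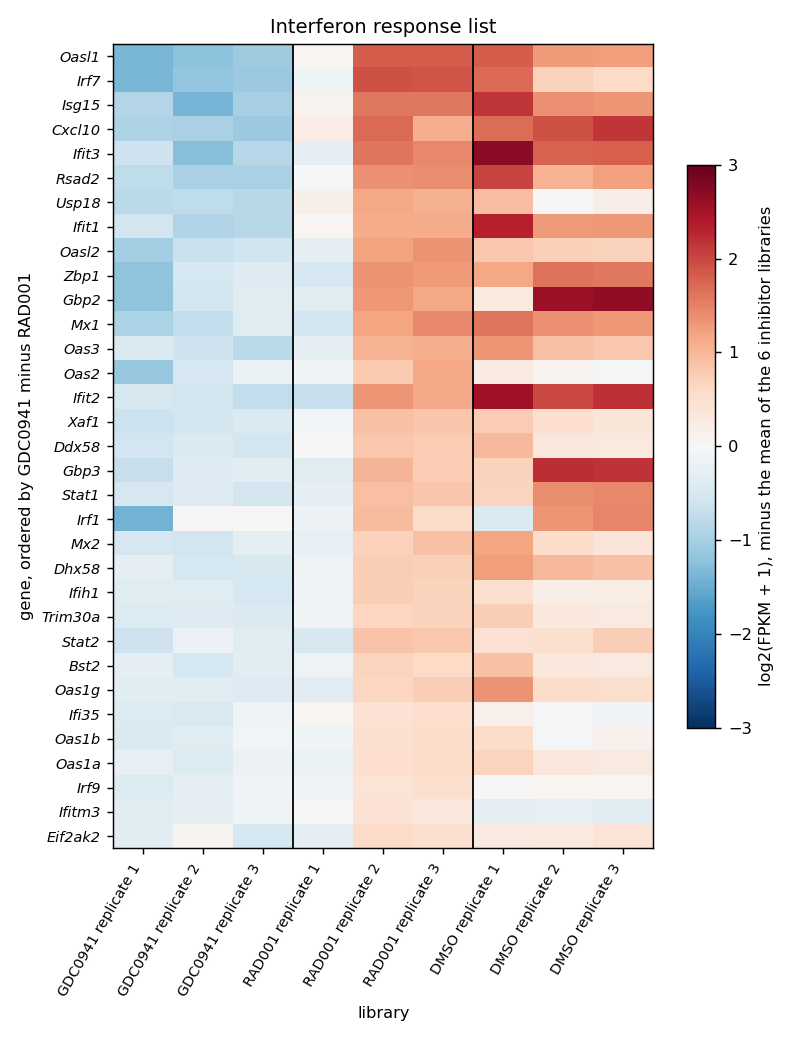
Colour gives log2(FPKM + 1) of each interferon response gene (rows) in each library (columns, GDC0941, then RAD001, then DMSO), minus its mean over the 6 inhibitor libraries. RAD001 replicate 1 lies closer to the GDC0941 libraries than RAD001 replicates 2 and 3 do, and 25 of the 33 members were called lower with GDC0941.

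Markers of neutrophil maturation were lower with GDC0941, with 15 of 26 lower and 1 higher (median log2 difference -1.31). Lcn2, the iron-binding lipocalin of secondary granules, was at 175, 187 and 237 FPKM in the GDC0941 libraries, against 1218, 905 and 899 FPKM in the RAD001 libraries (log2 difference -2.33 ± 0.20, adjusted p = 3.25e-05). Retnlg, a resistin-like protein of neutrophils, was at 20.4, 45.5 and 53.9 FPKM in the GDC0941 libraries, against 644, 367 and 393 FPKM in the RAD001 libraries (log2 difference -3.58 ± 0.33, adjusted p = 6.92e-05). For both genes the DMSO libraries, at 896, 631 and 621 FPKM for Lcn2 and 143, 153 and 150.0 FPKM for Retnlg, lay between the drugs. Padi4, which citrullinates histones in neutrophils, fell by 1.14 on the log2 scale (SE 0.13). Cybb, the catalytic subunit of the phagocyte oxidase and named after its values were seen, was the member that rose (0.44 ± 0.10), and its call ended without RAD001 replicate 3. The median was -1.63, -1.18 and -1.21 between the libraries of replicates 1, 2 and 3. Without replicate 1 of every group 24 members were lower. Summed over the list, the level was 9506 to 13909.5 FPKM in the GDC0941 libraries and 24184 to 29757 FPKM in the RAD001 libraries.

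Of 14 primary granule genes, which mark an earlier stage of granulocytes, 1 passed (7.14%, beside 17.7% of all genes). It was Cebpe, the factor that turns on secondary granule genes, which fell (log2 difference -1.39 ± 0.15, adjusted p = 0.000163). The list gave 3 higher and 3 lower with the replicate block, 4 higher and 2 lower without RAD001 replicate 1, and 2 lower without GDC0941 replicate 1.

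Of 35 monocyte and macrophage markers, 10 were lower and 3 were higher with GDC0941, or 12 and 5 with the replicate block, and 7 were higher after quantile normalization. Mrc1, the mannose receptor of tissue macrophages, was at 9.62, 13.4 and 12.2 FPKM in the GDC0941 libraries, against 0.986, 1.49 and 1.28 FPKM in the RAD001 libraries (log2 difference 2.50 ± 0.18, adjusted p = 1.4e-05), with 9.11, 11.4 and 11.6 FPKM in the DMSO libraries, so the RAD001 libraries were the low ones. Ly6c1, which may share reads with near-identical Ly6 genes, was at 2.67, 3.67 and 2.71 FPKM in the GDC0941 libraries, against 23.3, 97.8 and 87.0 FPKM in the RAD001 libraries (log2 difference -3.90 ± 0.48, adjusted p = 0.000341). Maf, a transcription factor of macrophages, was at 10.4, 9.93 and 10.0 FPKM in the GDC0941 libraries, against 36.9, 83.2 and 77.8 FPKM in the RAD001 libraries (log2 difference -2.50 ± 0.25, adjusted p = 9.63e-05), and the integrin chain Itgam fell by 0.60 on the log2 scale. In Ly6c1 and Maf, RAD001 replicate 1 was the lowest RAD001 library. Trem2, a lipid receptor of macrophages (0.90 ± 0.25), and Klf4 were the other 2 higher members, Trem2 being named after its values were seen. Without RAD001 replicate 2 the lower members numbered 5, and without RAD001 replicate 3 they numbered 6.

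The receptor for GM-CSF, the cytokine in the medium, was lower with GDC0941 in its shared chain. Csf2rb was at 194, 159.6 and 143 FPKM in the GDC0941 libraries, against 693, 536 and 508 FPKM in the RAD001 libraries (log2 difference -1.80 ± 0.14, adjusted p = 2.62e-05), while the DMSO libraries held 143, 122 and 125 FPKM. Its duplicate Csf2rb2, which may share reads with it, was at 57.2, 38.1 and 33.0 FPKM in the GDC0941 libraries, against 240.5, 180.4 and 169.8 FPKM in the RAD001 libraries (log2 difference -2.20 ± 0.22, adjusted p = 0.000108). All libraries of GDC0941 were below those of RAD001 for both, and for Csf2rb they were nearer to DMSO than the RAD001 libraries were. In the list of 26 STAT5 and cytokine receptor genes 8 were lower and 1 was higher, or 13 and 1 with the replicate block. Stat3 (-0.34) and the shared gamma chain Il2rg (-0.64) were among the lower ones. Without RAD001 replicate 2, 4 were lower, and the higher member was lost without GDC0941 replicate 1 or 3 or RAD001 replicate 2 or 3. The IL-21 receptor Il21r, outside these lists, was at 2.30, 2.59 and 3.49 FPKM in the GDC0941 libraries, against 15.7, 30.1 and 29.5 FPKM in the RAD001 libraries (log2 difference -2.74 ± 0.23, adjusted p = 2.93e-05).

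Of 27 antigen presentation genes, 8 were lower with GDC0941 and the other 19 did not pass. Cd74, the chaperone of class II molecules, was at 443, 516 and 695 FPKM in the GDC0941 libraries, against 1122, 1194 and 1182 FPKM in the RAD001 libraries (log2 difference -1.10 ± 0.22, adjusted p = 0.00765). Tapbp, which loads peptides on class I molecules (-0.69), the costimulatory receptor Cd40 (-0.89) and the class II editor H2-DMb2 (-0.68) were lower too. The count was 19 without replicate 1 of every group.

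Ly6a (Sca-1), an interferon-inducible marker of stem and progenitor cells, had the fifth largest fall by the naming rule, at 21.7, 27.8 and 32.7 FPKM in the GDC0941 libraries, against 256, 977 and 949 FPKM in the RAD001 libraries (log2 difference -4.47 ± 0.50, adjusted p = 0.000208). Its RAD001 replicate 1 was lower than RAD001 replicates 2 and 3, and the DMSO libraries held 451, 515 and 517 FPKM. Of 17 stem and progenitor markers 5 were lower and 2 higher, or 2 lower without GDC0941 replicate 2 or without RAD001 replicate 2 and 3 lower without RAD001 replicate 1. Among the lower ones Gata2 was at 28.1, 9.28 and 8.90 FPKM with GDC0941 and 88.3, 47.0 and 37.6 FPKM with RAD001 (log2 difference -1.93 ± 0.52, adjusted p = 0.0275), and its call ended without GDC0941 replicate 2 or 3 or RAD001 replicate 1 or 2 (adjusted p = 0.0628 to 0.0880). The higher ones, of which 1 was left without GDC0941 replicate 1 or RAD001 replicate 2 or 3, included the surface protein Cd48 (0.58 ± 0.09). Of 18 genes of the MLL fusion and HoxA program, which keeps these leukaemias immature, 1 was higher and 2 were lower. That is 16.7% called, beside 17.7% of all genes, and these calls rested on single libraries. The higher one ended without GDC0941 replicate 1 or RAD001 replicate 2 or 3. Both lower ones ended without GDC0941 replicate 3 or RAD001 replicate 1 or 2, and 1 of them without GDC0941 replicate 2 or RAD001 replicate 3.

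Genes of sterol synthesis were higher with GDC0941. Of 23 members tested 15 rose, 8 missed the threshold and the median log2 difference was 0.91, and in 17 members all GDC0941 libraries were above all RAD001 libraries, against 17.3% of all 10135 genes. Along the pathway, Mvd, which makes the isoprenoid unit, was at 48.4, 32.7 and 34.0 FPKM in the GDC0941 libraries, against 18.1, 15.4 and 15.2 FPKM in the RAD001 libraries (limma, log2 difference 1.17 ± 0.16, adjusted p = 0.000601). Fdps, which joins isoprenoid units to farnesyl diphosphate, was at 229, 109 and 137 FPKM in the GDC0941 libraries, against 75.4, 44.9 and 43.9 FPKM in the RAD001 libraries (log2 difference 1.49 ± 0.26, adjusted p = 0.00314). Sc4mol, a sterol demethylating oxidase, was at 91.7, 56.6 and 65.8 FPKM in the GDC0941 libraries, against 38.0, 33.6 and 31.5 FPKM in the RAD001 libraries (log2 difference 1.01 ± 0.17, adjusted p = 0.00299), and Dhcr7, which makes cholesterol in the last step, was at 19.3, 8.88 and 9.77 FPKM in the GDC0941 libraries, against 5.47, 3.57 and 3.24 FPKM in the RAD001 libraries (log2 difference 1.37 ± 0.24, adjusted p = 0.00371). Replicate 1 was the highest library of each drug in these 4 genes, and the 2 drugs did not overlap. The DMSO libraries held 144, 176 and 176 FPKM of Fdps and 26.2, 31.5 and 36.3 FPKM of Mvd, which for both genes is above every RAD001 library and in or near the range of the GDC0941 libraries.

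Other steps of the pathway were named after their values were seen. Sqle, which starts the sterol ring by oxidising squalene, rose by 1.37 ± 0.27 (adjusted p = 0.00617). Insig1, which holds the sterol sensor in the endoplasmic reticulum, rose by 1.09 ± 0.21. The regulator Srebf2 (0.19 ± 0.12) did not pass. The list median was 1.20 between the replicate 1 libraries, 0.73 between the replicate 2 libraries and 0.81 between the replicate 3 libraries. Without RAD001 replicate 2 the count of higher members was 9, and with the 6 libraries alone it was 8. The SREBP motif TCACNCCAC, searched on both strands, was found in 0 of 16 matched promoters of the list, against 1.44% of all promoters.

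**Figure D5:**
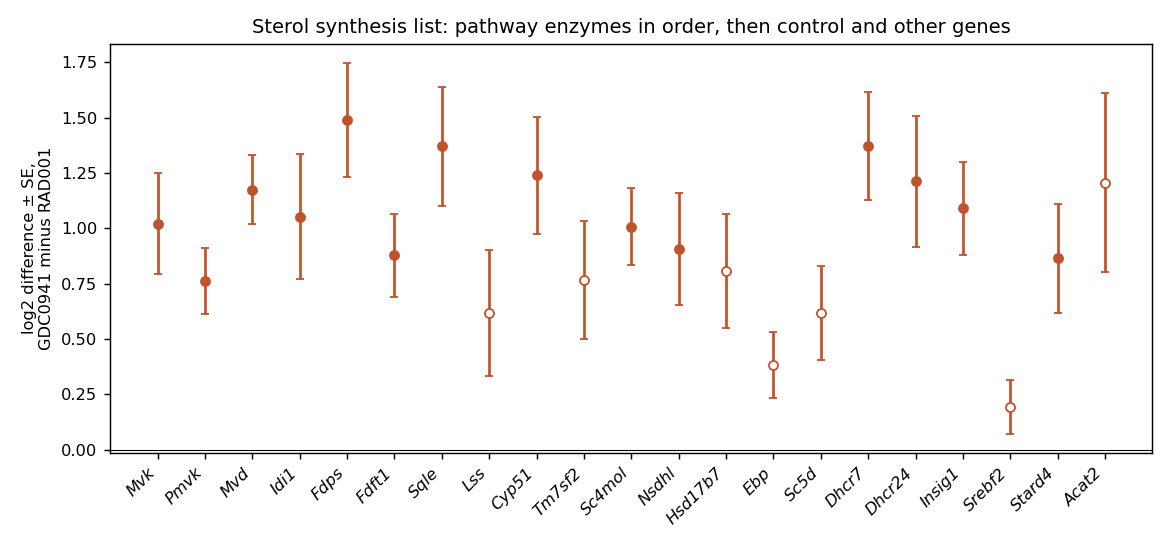
Points give the log2 difference, GDC0941 minus RAD001, of genes of the sterol synthesis list, with bars for the SE of the limma fit. Filled points were called and open points were not, no point lies below 0, and Fdps, at 1.49, is the highest.

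Fatty acid synthesis was less uniform, with 5 of 22 higher and 2 lower. Acsl3, which activates fatty acids for lipid droplets, was at 22.3, 10.0 and 10.4 FPKM in the GDC0941 libraries, against 6.29, 3.94 and 3.10 FPKM in the RAD001 libraries (log2 difference 1.44 ± 0.28, adjusted p = 0.006). Scd2, a desaturase, was at 184, 61.1 and 55.9 FPKM in the GDC0941 libraries, against 44.4, 16.4 and 12.5 FPKM in the RAD001 libraries (log2 difference 1.98 ± 0.50, adjusted p = 0.0196), and its call ended without RAD001 replicate 2 (adjusted p = 0.0717) or RAD001 replicate 3 (0.0814). Replicate 1 was the highest library of each drug for Scd2. The higher members numbered 1 without RAD001 replicate 2 and 2 without RAD001 replicate 3 or GDC0941 replicate 1. The lower members numbered 1 without RAD001 replicate 2 or any 1 of the GDC0941 libraries and 0 without RAD001 replicate 3.

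Fatty acid binding proteins showed wide rises. Fabp5 was at 1052, 489.5 and 464 FPKM in the GDC0941 libraries, against 125, 126 and 111 FPKM in the RAD001 libraries (log2 difference 2.36 ± 0.29, adjusted p = 0.00031), and the DMSO libraries, at 932, 969 and 1024 FPKM, were close to GDC0941 replicate 1 and above the other 5 libraries. Fabp4 was at 199, 25.3 and 28.1 FPKM in the GDC0941 libraries, against 10.8, 3.31 and 3.22 FPKM in the RAD001 libraries (log2 difference 3.16 ± 0.69, adjusted p = 0.0104). Its RAD001 libraries all lay below the GDC0941 libraries, GDC0941 replicate 1 alone reached the DMSO level of 159, 116 and 123 FPKM, and the call ended when only the 6 libraries were fitted (adjusted p = 0.0633). Pparg, the nuclear receptor that responds to fatty acids and drives alveolar macrophage genes, was at 5.07, 5.87 and 5.03 FPKM in the GDC0941 libraries, against 0.731, 0.714 and 1.00 FPKM in the RAD001 libraries (log2 difference 1.80 ± 0.20, adjusted p = 0.000208). In the DMSO libraries Pparg was at 1.94, 2.40 and 3.23 FPKM, between the drugs. Pparg reached the level needed for a test through the GDC0941 libraries.

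Of 14 cholesterol efflux and LXR target genes 4 were higher and 2 lower with GDC0941. The exporter Abcg1 (0.84 ± 0.18) and the ubiquitin ligase Mylip (0.79 ± 0.15), were higher, while Nr1h2, the gene of LXR beta (-0.46 ± 0.06), and the small GTPase Arl4c (-0.94 ± 0.08) were lower. The higher members numbered 2 without GDC0941 replicate 1 or RAD001 replicate 3. Ch25h, which makes an oxysterol that activates LXR, was at 20.6, 14.7 and 20.0 FPKM in the GDC0941 libraries, against 5.36, 4.74 and 4.23 FPKM in the RAD001 libraries (log2 difference 1.74 ± 0.23, adjusted p = 0.000524).

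Further large rises came from genes of several kinds. Car4, a membrane-bound carbonic anhydrase, was at 26.0, 40.4 and 47.2 FPKM in the GDC0941 libraries, against 2.07, 2.65 and 1.63 FPKM in the RAD001 libraries (log2 difference 3.61 ± 0.29, adjusted p = 2.72e-05), the widest rise by the naming rule. With 0.521, 0.807 and 2.53 FPKM in the DMSO libraries, GDC0941 was the high group. Syngr1, a vesicle membrane protein, was at 66.8, 51.4 and 49.6 FPKM in the GDC0941 libraries, against 8.43, 9.13 and 8.08 FPKM in the RAD001 libraries (log2 difference 2.57 ± 0.20, adjusted p = 2.12e-05), with 48.6, 45.1 and 49.8 FPKM in DMSO, and here RAD001 was the low group. Cd209a, a pathogen-binding lectin of dendritic cells, was at 51.6, 24.8 and 26.4 FPKM in the GDC0941 libraries, against 12.3, 3.75 and 2.66 FPKM in the RAD001 libraries (log2 difference 2.45 ± 0.44, adjusted p = 0.0037). Gdf15, a stress cytokine, was at 31.2, 23.9 and 30.3 FPKM in the GDC0941 libraries, against 5.74, 9.42 and 6.75 FPKM in the RAD001 libraries (log2 difference 1.84 ± 0.23, adjusted p = 0.000337). Rab3il1, which activates Rab GTPases, rose by 2.18 ± 0.21, Enpp1, which hydrolyses extracellular nucleotides, by 1.88 ± 0.20, and the secreted glutathione peroxidase Gpx3 by 1.49 ± 0.18. The lysosomal amidase Naaa rose by 1.72 ± 0.39 and the sphingosine kinase Sphk1 by 1.55 ± 0.32. Gm11428 rose by 1.96 ± 0.21, and the kallikrein Klk1b11, whose assignment among close relatives is uncertain, by 2.59 ± 0.44. The RIKEN gene 2810025M15Rik rose by 1.44 ± 0.35, and its call ended without RAD001 replicate 2 (adjusted p = 0.0644) or RAD001 replicate 3 (0.0684).

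Further large falls outside the groups above were as varied. Lyzl4, a lysozyme-like gene, was at 0.439, 0.0731 and 0.145 FPKM in the GDC0941 libraries, against 29.9, 21.0 and 17.1 FPKM in the RAD001 libraries (log2 difference -4.26 ± 0.18, adjusted p = 2.54e-07). Ahrr, the repressor of the aryl hydrocarbon receptor that the receptor itself induces, was at 0.799, 0.861 and 0.725 FPKM in the GDC0941 libraries, against 10.1, 15.1 and 13.8 FPKM in the RAD001 libraries (log2 difference -2.95 ± 0.18, adjusted p = 7.19e-06). Both stayed below 1 FPKM in every GDC0941 library, and so reached the level needed for a test through the RAD001 libraries. Irg1, which makes itaconate in activated macrophages, was at 7.43, 8.27 and 9.33 FPKM in the GDC0941 libraries, against 71.6, 66.7 and 49.7 FPKM in the RAD001 libraries (log2 difference -2.76 ± 0.29, adjusted p = 0.000132). Runx3, a transcription factor of haematopoietic cells, was at 2.75, 1.47 and 1.09 FPKM in the GDC0941 libraries, against 18.1, 12.9 and 14.1 FPKM in the RAD001 libraries (log2 difference -2.57 ± 0.24, adjusted p = 7.36e-05). The tubulin gene Tuba8 fell by 3.40 on the log2 scale (SE 0.30) and Ly6i, another member of the Ly6 family of close relatives, by 2.73 (SE 0.24). Hdc, which makes histamine, was at 22.5, 3.82 and 4.52 FPKM in the GDC0941 libraries, against 186, 32.9 and 24.9 FPKM in the RAD001 libraries (log2 difference -2.68 ± 0.76, adjusted p = 0.0329). Hdc in replicate 1 of both drugs was several times higher than in the other replicates, and the call ended without GDC0941 replicate 2 or 3 or RAD001 replicate 1 or 2 (adjusted p = 0.0518 to 0.0992).

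Nqo1, a quinone reductase, was the widest fall among 23 NRF2 antioxidant targets, of which 6 were lower and the other 17 did not pass. It was at 3.19, 5.94 and 4.73 FPKM in the GDC0941 libraries, against 30.0, 44.96 and 45.4 FPKM in the RAD001 libraries (log2 difference -2.88 ± 0.23, adjusted p = 2.62e-05), with 7.46, 7.58 and 6.65 FPKM in the DMSO libraries. Osgin1 (-1.09) and the pentose phosphate enzyme G6pdx (-0.41) were lower as well. The list count was 3 without GDC0941 replicate 1 or RAD001 replicate 2 or 3, and 11 without RAD001 replicate 1.

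ERK output genes, which report on RAS signalling to MEK and ERK, were 6 lower and 2 higher of 26. Of all genes 9.51% were lower and 8.23% higher. Dusp5, a nuclear ERK phosphatase, was at 11.4, 8.95 and 10.6 FPKM in the GDC0941 libraries, against 59.2, 38.2 and 33.3 FPKM in the RAD001 libraries (log2 difference -1.94 ± 0.27, adjusted p = 0.000696), and the receptor Epha2 fell by 1.61 on the log2 scale (SE 0.11). Etv1, an ETS transcription factor, rose (1.13 ± 0.13). The counts stayed at 4 or more lower and 1 or more higher under every alternative. Of 23 Ras pathway genes the RAS brake Rasa2 (-0.96) and the ERK-activated kinase Rps6ka1 (-0.49) were lower and the RAS brake Rasa3 (0.57 ± 0.13) was higher, and these counts were the same under every alternative. They make up 13.0% of the Ras list, below the 17.7% called of all genes.

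Of 39 lysosome and TFEB target genes 6 were higher and 2 lower, or 12 and 3 with the replicate block, and 15 were higher after quantile normalization. In the main fit 20.5% of this list was called, beside 17.7% of all genes. Atp6v0d2, a proton pump subunit of osteoclasts and macrophages, was at 27.0, 40.6 and 36.5 FPKM in the GDC0941 libraries, against 4.97, 10.1 and 8.94 FPKM in the RAD001 libraries (log2 difference 2.02 ± 0.26, adjusted p = 0.000497), and the sulfamidase Sgsh rose by 0.65 ± 0.11. The protease Ctsl went the other way, at 659, 543 and 580.4 FPKM in the GDC0941 libraries, against 1532, 1911 and 1781 FPKM in the RAD001 libraries (log2 difference -1.55 ± 0.18, adjusted p = 0.000245). The lower members numbered 1 without any 1 library other than RAD001 replicate 1. Of 13 osteoclast and fused macrophage genes 3 were higher and 3 lower, the higher ones including the inhibitory receptor Sirpa (0.45 ± 0.07) and the lower ones its ligand Cd47 (-0.99 ± 0.16). Of 34 autophagy genes 1 was higher and 1 lower (5.88% called, beside 17.7% of all genes), and each count moved between 0 and 4 over the alternatives.

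CC chemokines did not follow the CXC genes. Of 16, 2 were higher and 1 was lower, or 6 and 2 with the replicate block. In the main fit 18.8% of this list was called, beside 17.7% of all genes. Ccl6, an abundant macrophage chemokine, was at 4990.0, 6087 and 6474 FPKM in the GDC0941 libraries, against 3333, 3503 and 3133 FPKM in the RAD001 libraries (log2 difference 0.81 ± 0.18, adjusted p = 0.0106), and the DMSO libraries, at 725, 1029.8 and 1250.3 FPKM, were below both drugs. The calls of Ccl17 (1.34) and Ccl9 (-0.54) ended without most single libraries, at adjusted p of up to 0.151 for Ccl17 and up to 0.0700 for Ccl9.

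Genes of cell death were mixed. Of 17 BCL2 family genes 6 were higher and 3 lower. Bcl2a1d (0.85 ± 0.15) and Bcl2a1b (1.12 ± 0.26), survival genes whose duplicates may share reads, were higher, and the call of Bcl2a1b ended without RAD001 replicate 2 (adjusted p = 0.0567) or RAD001 replicate 3 (0.0598). The higher members numbered 2 without GDC0941 replicate 3 or RAD001 replicate 2 and 1 without RAD001 replicate 3. Pmaip1 (NOXA), a death-promoting member that is also a p53 target, fell by 1.16 on the log2 scale (SE 0.15). Of 20 p53 targets 6 were lower, or 3 lower without GDC0941 replicate 1 or 3 and 2 lower without RAD001 replicate 2.

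In the growth and division lists the shares of members called were near or below that of all genes. Against 17.7% of all genes, 21.1% of the ribosome biogenesis list and 15.6% of the nucleotide and one-carbon list were called. The share was 20% for ATF4 and amino acid response and 15.9% for oxidative phosphorylation. Of 38 ribosome biogenesis genes 8 were higher with GDC0941 (median log2 difference 0.20), among them nucleolin, Ncl (0.39 ± 0.07), and the nucleolar GTPase Gnl3 (0.51 ± 0.10). The count fell to 4 without GDC0941 replicate 2 or 3, to 3 without RAD001 replicate 2 and to 2 without RAD001 replicate 3. With the 6 libraries alone it was 1. Of 32 nucleotide and one-carbon genes 5 were higher, such as the serine hydroxymethyltransferase Shmt2 (0.56 ± 0.12), or 2 higher without GDC0941 replicate 1 or RAD001 replicate 2 or 3. With the 6 libraries alone 0 were higher. The glutamine transporter Slc1a5 (log2 difference 0.71 ± 0.09, adjusted p = 0.000448) was among 4 higher and 2 lower of 30 ATF4 and amino acid response genes, a list whose higher members numbered 7 without GDC0941 replicate 2 and 2 without any 1 library other than that and RAD001 replicate 1. Of 44 oxidative phosphorylation genes 6 were higher and 1 lower, or 1 higher without GDC0941 replicate 1 or 3 or RAD001 replicate 2 or 3, 11 higher without GDC0941 replicate 2 and 23 higher after quantile normalization. The median of that list was 0.19.

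Against 17.7% of all genes, 2.94% of the S phase list, 6.25% of the mitosis list and 20% of the cyclin list were called. The share was 18.2% for glycolysis, 5.26% for translation factors, 4% for ribosomal proteins and 4.35% for ER stress. Of 34 S phase genes 1 was lower, and 2 were higher with the replicate block or without GDC0941 replicate 2 or RAD001 replicate 1. Of 32 mitosis genes 2 were higher, Cenpa (0.77) and Bub1b (0.71). Neither was called without GDC0941 replicate 1 or 3 or RAD001 replicate 2 or 3, and 4 members were higher without RAD001 replicate 1. The median log2 difference of the mitosis list was 0.37, with 0.51, 0.31 and 0.22 between the libraries of replicates 1, 2 and 3. That of the S phase list was 0.27, with 0.43, 0.15 and 0.29. The cyclins and CDK inhibitors gave 3 lower of 15, with the D-type cyclin Ccnd3 at -0.49, and 1 lower without GDC0941 replicate 3 or RAD001 replicate 2. Among 33 glycolysis and hypoxia genes 5 were lower and 1 higher (2 higher with the replicate block or without RAD001 replicate 1), and the lower count was 2 or 3 without GDC0941 replicate 2 or 3 or RAD001 replicate 2 or 3. Among 38 translation factors 1 was higher, Eif1a (0.42 ± 0.08), and 1 lower. The higher translation factors numbered 3 without GDC0941 replicate 2 or after quantile normalization, and 2 without RAD001 replicate 1. Among 50 cytosolic ribosomal protein genes 2 were lower, or 1 without any single library other than RAD001 replicate 3, and 2 were higher without GDC0941 replicate 1 or RAD001 replicate 1. The ribosomal gene Rps27, 1 of those 2, stood at 2.19, 2.83 and 3.996 FPKM in the GDC0941 libraries, against 78.7, 3.12 and 109 FPKM in the RAD001 libraries, so RAD001 replicate 2 overlapped the GDC0941 libraries, and reads of its copies may be shared. The Rps27 call ended without any 1 GDC0941 library and without RAD001 replicate 1 or 3 (adjusted p = 0.0742 to 0.150). Of 23 ER stress genes 1 was higher, Sdf2l1 (0.52 ± 0.11), or 2 without GDC0941 replicate 2.

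Markers of other cell types were counted by list. Of the T and NK cell markers 0 of 14 reached the level needed for a test, and their sum was 0.430 to 2.80 FPKM in the GDC0941 libraries and 1.64 to 6.60 FPKM in the RAD001 libraries. Of 10 B cell markers 2 were tested and of 12 erythroid markers 1, and none of these 3 passed. Of 15 mast cell and basophil markers 5 were tested, Hdc and Gata2 were lower and the other 3 did not pass. The list median was -1.62 between the replicate 1 libraries, 0.27 between the replicate 2 libraries and 0.45 between the replicate 3 libraries. Without RAD001 replicate 1, 1 member was higher and 0 were lower. Without replicate 1 of every group, 3 members were higher. The markers' sum, with Hdc and Gata2 in it, was 18.5 to 58.0 FPKM with GDC0941 and 65.3 to 289 FPKM with RAD001. The mast cell protease Mcpt4 was listed at 0 in all 6 libraries. The IgE receptor chain Fcer1a averaged 0.0187 FPKM with GDC0941 and 0 FPKM with RAD001. Of 16 stromal and endothelial markers 3 were tested. Pecam1 (-1.46) and Nt5e (-1.54), which leukocytes also carry, were lower, while the collagen gene Col1a1 averaged 0.150 FPKM with GDC0941 and 0.184 FPKM with RAD001. The part of other cells in the falls of Pf4, Ppbp, Hdc and Gata2 was not tested.

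A further 5 called genes had an exact 0 in at least 1 of the 6 libraries and 5 FPKM or more in the higher group, and are given as values without a fold. Besides Cxcl5 they were Cck, a neuropeptide, at 0.0851, 0 and 0 FPKM with GDC0941 and 17.6, 3.30 and 2.94 FPKM with RAD001, and 3 small nucleolar RNAs. Snora78 stood at 0.372, 0 and 0.734 FPKM with GDC0941 and 12.7, 8.89 and 35.7 FPKM with RAD001. Snora65 was listed at 620 and 618 FPKM in GDC0941 replicates 1 and 2 and at 0 in replicate 3, against 0 in every RAD001 library, and Snora23 at 0, 12.9 and 6.38 FPKM with GDC0941 against 0 in every RAD001 library. The Snora65 call ended without GDC0941 replicate 1 or 2 or any 1 RAD001 library (limma, adjusted p = 0.0647 to 0.115). That of Snora23 ended without GDC0941 replicate 2 or 3 or any 1 RAD001 library (adjusted p = 0.0733 to 0.134). Snora65 and Snora23 reached the level needed for a test through the GDC0941 libraries, and Cck and Snora78 through the RAD001 libraries. An exact 0 in this table can be a failed estimate, as for Lyz2, the lysozyme of macrophages, which is listed at 0 in all libraries.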

How the data were processed

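Total RNA of 12 libraries, 3 in each of 4 groups, was sequenced. The authors deposited FPKM values per gene symbol, per the submitters' processing notes from TopHat2 2.0.4 alignments to mm9 and Cuffdiff. How libraries were normalized to each other, and with which annotation, is not given in the sources used here. No positions are in the table, and read counts and absolute depth are unknown.

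Genes averaging 1 FPKM or more in the 6 GDC0941 and RAD001 libraries, Fth1 left out, were put on the log2(FPKM + 1) scale. A limma 3.58.1 model (R 4.3.3) of 4 group means took all 12 libraries, leaving 8 residual degrees of freedom, with eBayes and a trend, and GDC0941 was compared with RAD001, two-sided, with Benjamini-Hochberg adjustment over 10135 genes and a threshold of 0.05. The procedure was tested on simulated data with independent noise in each library. That simulation does not cover deviations that libraries of the same replicate number share. SE values are from limma. The genes compared and the 43 gene lists, from textbook knowledge, were chosen with earlier results of these data known, and a further 4 lists after seeing values. Lists are described by counts and medians, without a set test.

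Genes were named by a rule. It takes the 20 largest rises and 20 largest falls that passed, did not overlap between libraries, had at least 5 FPKM in the higher group and no exact 0, then up to 4 called members per list in order of adjusted p (where no member passed, the 2 most abundant tested), the targeted kinase genes with Fkbp1a and Nras, and up to 5 genes with an exact 0. Not every gene of the rule is described, and some genes are not reported here.

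Replicate numbers were checked for pairing. Deviations from the group mean of same-numbered GDC0941 and RAD001 libraries correlated across genes at 0.582, 0.492 and 0.309 for replicates 1, 2 and 3, above 0.1 in every pair, while GDC0941 replicate 3 with RAD001 replicate 2 gave 0.218 and GDC0941 replicate 2 with RAD001 replicate 3 gave 0.410. A fit with the replicate number as a block is thus given where it changes a call or moves a count by over 1.5 times. The other alternatives were pseudocounts of 0.1 and 5 FPKM, dropping the filter or raising it to 5 FPKM, quantile normalization, median-ratio scaling, a fit to the 6 libraries alone, library weights, leaving out each library, and, chosen after seeing the data, leaving out replicate 1 of every group. Promoters, 250 bases before to 50 after a start, came from RefSeq (GRCm38.p6) and were matched by symbol.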

Additional observations from a re-analysis of the deposited data

How the results depend on the processing

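With the replicate block in all 12 libraries, 1093 genes were higher and 1215 lower with GDC0941, 1757 of the 1798 main calls among them, and with the block in the 6 libraries alone 841 and 1072. In all 12 libraries the block changed no call of a gene named by the rule. Beside the list counts given with it above or below, it moved no other list count by over 1.5 times. In the 6 libraries alone it ended the calls of Rictor, Elovl1, Pkm2, Pfkfb3, Atg5, Rpl24, Cycs, Uqcrb and Runx2 (adjusted p = 0.0536 to 0.112). There the higher members numbered 10 for mitosis, 5 for S phase, 7 for cholesterol efflux, 4 for ribosome biogenesis and 3 for oxidative phosphorylation, and the lower members 12 for NRF2 targets and 4 for ATF4 targets. A fit to the 6 libraries alone, which leaves fewer residual degrees of freedom, called 242 higher and 451 lower (678 of the main calls). It ended 42 calls of genes named by the rule, at limma adjusted p of up to 0.166. Among these were Scd2 (adjusted p = 0.0872), Hdc (0.113), Gata2 (0.0581), Rps27 (0.152) and Ccl17 (0.112). The calls of Ncl, Shmt2, Sdf2l1 and Stat3 (adjusted p = 0.0550 to 0.0731) ended as well. In the same fit 42 list counts moved by over 1.5 times. Library weights called 1309 and 1695. Without replicate 1 of every group, chosen after seeing the data, 1564 were higher and 1817 lower (1709 of the main calls), with the cause not tested. Leaving out 1 library gave 340 to 917 higher and 579 to 1073 lower, the low ends without RAD001 replicate 3 and RAD001 replicate 2. Genes at least 2-fold higher numbered 115 with a pseudocount of 0.1 FPKM, 30 with 5 FPKM and 58 to 106 with 1 library left out. Those at least 2-fold lower numbered 141 with 5 FPKM and 216 to 318 with 1 library left out. No main call changed direction in any setting. Of the values of named genes under the alternatives, 2473 kept their side of the threshold, 183 lost it and 8 gained it. List counts moved by over 1.5 times in 341 cases and by less in 1087. Depth limits low genes, whose counting error is unknown.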

Other observations

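Gene groups not described above were drawn up after the values were seen, so their counts are descriptions of these libraries. Of 7 tested targets of the aryl hydrocarbon receptor, a sensor of xenobiotics and tryptophan metabolites, 3 were lower with GDC0941, namely Ahrr, Nqo1 and Tiparp. Tiparp, which restrains the receptor, was at 12.3, 10.2 and 9.19 FPKM in the GDC0941 libraries, against 23.3, 33.6 and 31.4 FPKM in the RAD001 libraries (limma, log2 difference -1.39 ± 0.14, adjusted p = 0.000102). The other 4 members tested did not pass. A list of PPAR gamma, its partner Rxra and targets had 16 genes tested. Of these 6 were higher, namely Pparg and Rxra themselves, Fabp4, Fabp5, Klf4 and Scd2. The other 10 did not pass, and 2 were lower with the replicate block.

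Genes of alternatively activated macrophages split, with 5 of 16 higher and 2 lower, or 5 lower with the replicate block. Mrc1, Cd209a, Ccl17, Pparg and Ch25h were the higher ones. The lectin Clec10a went the other way, at 101, 47.6 and 68.8 FPKM in the GDC0941 libraries, against 518, 350.4 and 349 FPKM in the RAD001 libraries (log2 difference -2.51 ± 0.29, adjusted p = 0.00021), with no overlap between the drugs, and so did the IL-4 receptor chain Il4ra (-0.69 ± 0.18). Without RAD001 replicate 2 the lower members numbered 1. Of 9 tested genes of the GM-CSF receptor and the Ly6 family 8 were lower with GDC0941. The high-affinity IgG receptor Fcgr1 is counted above among the monocyte and macrophage markers. Its values were 6.82, 6.82 and 7.09 FPKM in the GDC0941 libraries, against 8.60, 60.3 and 57.0 FPKM in the RAD001 libraries (log2 difference -2.04 ± 0.53, adjusted p = 0.0239). Thus RAD001 replicate 1 was near the GDC0941 libraries while RAD001 replicates 2 and 3 were far above them. The master regulator of interferon genes Irf7 showed the same order, at 30.8, 35.6 and 36.6 FPKM in the GDC0941 libraries, against 73.4, 308 and 299.9 FPKM in the RAD001 libraries (log2 difference -2.44 ± 0.46, adjusted p = 0.00532).

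The cytokine gene Il1b was at 23.8, 6.92 and 15.7 FPKM in the GDC0941 libraries, against 143, 13.3 and 15.98 FPKM in the RAD001 libraries (log2 difference -1.14 ± 0.81, adjusted p = 0.347) and did not pass. Replicate 1 was the highest library of each drug.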
